A study of Mus musculus with 2 samples.

Results

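Natural killer (NK) cells were rare in these mouse ovarian tumours: 58 of 27732 kept cell barcodes, or 0.209%, met the definition used here. A barcode was taken as an NK cell when it held at least 2 UMIs, the unique molecular identifiers that count captured transcripts, summed over 5 receptor genes: Ncr1, Klrb1c, Klre1, Klra8 and Klra4. It could hold at most 1 UMI of Cd3d, Cd3e and Cd3g together, at most 1 of Trdc, none of Cd79a, at most 1 of C1qa, C1qb and C1qc together and at most 1 of Krt18. The members were therefore chosen by measured values. The levels of these receptor and exclusion genes are descriptions, and so is every comparison below between the members and T cells of the same library.

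The tumours came from the ID8 model: ID8 is a C57BL/6 line of ovarian surface epithelial origin that forms tumours in mice. One group was treatment-naïve primary tumours and the other was chemoresistant tumours under cisplatin, a platinum drug that crosslinks DNA. Both groups were solid tumours, and for each the single-cell suspensions were pooled before one 10x Genomics 3′ v3 library was made. The number of animals per pool, their age and the schedule of the drug were not given in the sources used here. With 1 library per group there is no replicate of either condition, and no test between them was made. Intervals below are exact 95% Poisson or Clopper-Pearson intervals and cover counting error only.

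NK cells are innate lymphocytes that kill without a rearranged antigen receptor. Activating receptors such as NKp46 (Ncr1) and NKG2D (Klrk1) signal through adaptors that carry or recruit tyrosine kinases, and inhibitory receptors that bind class I MHC molecules, in the mouse mainly the Ly49 (Klra) family and the CD94/NKG2A pair (Klrd1 and Klrc1), restrain them. Killing is carried out by perforin and granzymes released from granules. The factors T-bet (Tbx21) and Eomes direct their development, and related helper-like innate lymphoid cells (ILCs) share Ncr1 and NK1.1 (Klrb1c) with NK cells while using other factors and cytokines.

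Of 14390 and 16390 barcodes, 12824 and 14908 passed the limits of at least 250 genes and at most 20% mitochondrial UMIs. The primary library gave 37 members among 12824 kept barcodes (0.289%, 0.203 to 0.397) and the chemoresistant library 21 among 14908 (0.141%, 0.0872 to 0.215). T cells, defined by at least 2 Cd3 UMIs and at most 1 receptor UMI with the other limits kept, numbered 541 and 201. NK cells thus made up 6.40% (4.55 to 8.72) of NK and T cells in the primary library and 9.46% (5.95 to 14.1) in the chemoresistant one, and those intervals overlap. Members had a median of 5115 UMIs in the primary library, with a range of 680 to 12730, and 3296 in the chemoresistant one, with a range of 883 to 32861. The summed members held 203086 and 148021 UMIs, so 1 UMI was worth 4.92 and 6.76 CPM, the usual scale on which the UMIs of every group of cells are brought to one common total. The libraries held 1.41e+08 and 1.58e+08 UMIs in all and shared 52 barcodes, none of them among the members.

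The label was checked against genes outside the definition. In the primary library all 37 members carried Ptprc, which encodes the leukocyte antigen CD45, 31 carried Klrk1 and 24 carried Eomes or Tbx21. At least 2 of Nkg7, Klrd1, Tyrobp and Ccl5 were carried by 28, and 7 carried none of these genes. In the chemoresistant library 14 of 21 carried Ptprc, 14 carried Klrk1 and 8 carried Eomes or Tbx21. There, 4 members stood apart. They had 17348 to 32861 UMIs, no Ptprc UMI, Klra4 as their one receptor and UMIs of the keratin genes Krt8 or Krt19, and 2 of them held at least 400 UMIs of the haemoglobin gene Hbb-bs. These 4 barcodes went against the label and held 62.6% of the UMIs of the chemoresistant members. A further 3 chemoresistant members and 1 primary member held at least 5 UMIs of the class II MHC gene H2-Aa, a marker of dendritic and B cells. Among them, 1 chemoresistant member also held 5 Ncr1 and 2 Nkg7 UMIs and UMIs of Eomes and Tbx21. All other members held at most 3 H2-Aa UMIs. Results that involve the chemoresistant library are therefore given with all members and without these 8. That leaves 36 primary and 14 chemoresistant members, 12 of the latter with Ptprc. Both criteria were set after the values were seen. On that basis the shares of kept barcodes were 0.281% (0.197 to 0.388) and 0.0939% (0.0514 to 0.158), and the NK shares of NK and T cells were 6.24% and 6.51%. These shares count members with a UMI of Il7r, 16 primary and 1 chemoresistant, a set low in cytotoxic genes that is described below. The members without Il7r numbered 20 and 13.

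**Figure D1:**
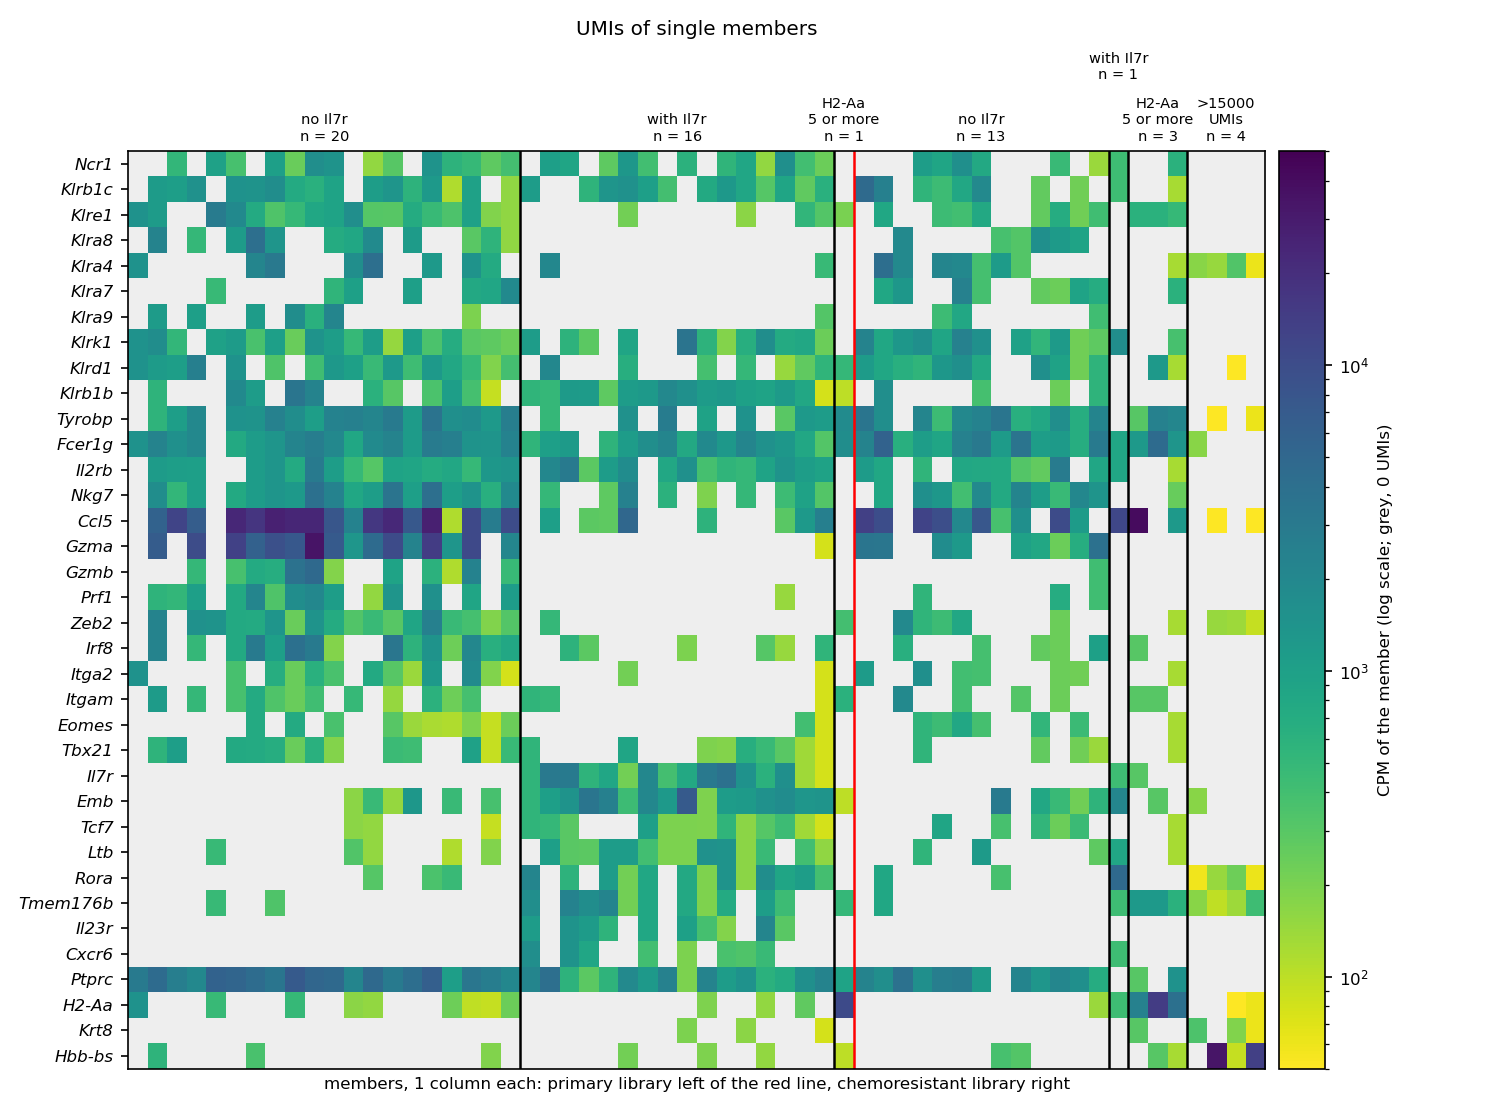
CPM in each of the 58 members (columns) for receptor, effector, regulator and contaminant marker genes (rows); grey is 0 UMIs, the colour scale is logarithmic, the red line parts the libraries and black lines part members with no Il7r, with Il7r, with at least 5 H2-Aa UMIs and with over 15000 UMIs. Among primary members with no Il7r, on the left, Gzma, Gzmb and Klra4 are seen in 16, 12 and 8. Il23r and Cxcr6 are seen in 10 and 8 of the 16 primary members with Il7r. The last 4 columns are among the 7 chemoresistant members that lack Ptprc.

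Near the limits of the definition, 5 primary members had exactly 2 receptor UMIs and 32 had at least 3. Nkg7, a granule membrane gene of cytotoxic lymphocytes, was at 142 CPM in the former and 1176 CPM in the latter. In 28 primary barcodes just outside, with 1 receptor UMI and at most 1 Cd3 UMI, Nkg7 was at 0. In 34 others outside, with at least 2 receptor UMIs but at least 2 Cd3 UMIs, it was at 620 CPM and Trac, the T-cell receptor alpha constant gene, was at 457 CPM. These 34 are not among the T cells compared below. They held 6129 CPM of Ccl5, 486 of Klrd1, 346 of Tyrobp and 9.61 of Eomes. In members with at least 3 receptor UMIs the values were 7617, 517, 1418 and 121 CPM.

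Of the 5 receptor genes of the definition, Ncr1 is on chromosome 7 and the other 4 lie on chromosome 6. All 27 Klr genes of the count tables are on that chromosome in the mouse annotation (GRCm38), and the 21 with a UMI in primary members lie between positions 122270596 and 130386874. Within this region the Klra, Klrb1 and Klrc genes are families of close copies, so the split of reads between their members is uncertain.

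The promoters of 3 genes that carry the description below are shown, each 300 bases from 250 before to 50 after the start, from RefSeq (GRCm38.p6). Ncr1 (chr7:4337465-4337764, plus strand) is one of the 5 receptors of the definition. Gzma (chr13:113100932-113101231, minus strand) and Prf1 (chr10:61297586-61297885, plus strand) encode granzyme A and perforin. Their levels differed between the primary members with and without Il7r. Capitals mark the Runx core TGTGGT and the T-box core AGGTGT on either strand, the letters bound by factor families whose genes Runx3, Tbx21 and Eomes are described below.
Ncr1: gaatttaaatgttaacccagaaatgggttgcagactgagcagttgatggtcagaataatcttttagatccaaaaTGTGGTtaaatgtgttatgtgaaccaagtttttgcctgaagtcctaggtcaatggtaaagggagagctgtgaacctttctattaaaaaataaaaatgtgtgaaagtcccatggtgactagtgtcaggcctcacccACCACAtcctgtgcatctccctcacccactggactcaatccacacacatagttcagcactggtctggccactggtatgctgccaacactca
Gzma: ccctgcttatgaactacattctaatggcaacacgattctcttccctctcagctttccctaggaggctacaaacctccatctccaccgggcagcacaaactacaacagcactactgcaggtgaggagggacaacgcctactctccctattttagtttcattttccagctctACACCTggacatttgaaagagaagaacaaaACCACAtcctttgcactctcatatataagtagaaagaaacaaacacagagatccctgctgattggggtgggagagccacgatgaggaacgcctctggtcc
Prf1: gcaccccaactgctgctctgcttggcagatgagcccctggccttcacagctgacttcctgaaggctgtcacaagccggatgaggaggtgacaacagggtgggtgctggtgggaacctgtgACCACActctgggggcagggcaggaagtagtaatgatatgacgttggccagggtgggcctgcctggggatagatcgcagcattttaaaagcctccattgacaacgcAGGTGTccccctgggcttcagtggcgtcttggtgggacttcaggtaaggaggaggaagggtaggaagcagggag
The Runx core occurred at 2 places in the Ncr1 window and once each in the others, and the T-box core occurred once each in the Gzma and Prf1 windows. The cores were found in 16.8% and 13.7% of all 32851 promoter windows, and the genes were picked for display after the matches were seen, so the matches are a description of these letters.

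The primary members were set against the 541 T cells of their library, which held 2903431 UMIs with a median of 4961 per cell. A log2 ratio here compares CPM + 5, and a gene counted as higher or lower when it was past 2-fold. Of 6664 genes with a mean of at least 20 CPM, 9.69% were higher in the members (646 genes), 5.69% were lower (379 genes) and the median log2 ratio was 0.13. With ratios centred on the median gene the split was 524 higher and 491 lower. Both kinds of cell were chosen by their genes in this library, so these counts describe the 2 classes and have no error between animals.

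Activating receptors outside the definition were mostly higher in NK cells: 9 of 12 compared were past 2-fold higher, 1 was lower and the median log2 ratio was 1.55. Klrk1, the NKG2D receptor, stood at 611 CPM (508 to 728) against 9.64 (6.41 to 13.9) in T cells, a 63.3-fold difference. It was seen in 83.8% of members, in 3.14% of T cells and in 0.721% of B cells, which should lack it, at median depths of 5115, 4961 and 4416 UMIs. Thinned to 1000 UMIs a cell, which left out 1 member, those shares were 52.8%, 0.742% and 0.271%. Klrc2 (NKG2C) had a log2 ratio of 3.33 and Cd244a (2B4, a SLAM family receptor) one of 2.58. Cd226, the receptor DNAM-1 for nectin-like ligands, was at 423 CPM against 192. The lower gene was Cd69, an activation antigen, at 83.7 CPM against 193.

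Inhibitory and lectin-like receptors showed the largest differences among the lists of NK genes. Of 15 compared, 12 were higher and none was past 2-fold lower, with a median log2 ratio of 3.21. Klrb1b, which recognises the C-type lectin-like ligand Clr-b, was at 680 CPM (571 to 803) in 28 of 37 members and at 9.30 CPM (6.13 to 13.5) in T cells. Klrd1, the CD94 chain, was at 492 against 82.7 CPM, and its partner Klrc1 was at 207 against 18.6 CPM. In the 34 barcodes with both receptor and Cd3 UMIs, which the T-cell class leaves out, Klrd1 was at 486 CPM. Klri2, of the KLRI family, had 50 UMIs in 20 members and none in T cells, at least 238-fold higher over a floor of 3 counts in the T-cell sum. The Ly49 genes were seen in fewer cells at high level: Klra7 gave 58 UMIs from 7 members, 24 of them from 1, against 6 UMIs from 1 T cell. Cd96 and Tigit, receptors of the nectin family that T cells also use, had log2 ratios of -0.89 and -0.03.

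**Figure D2:**
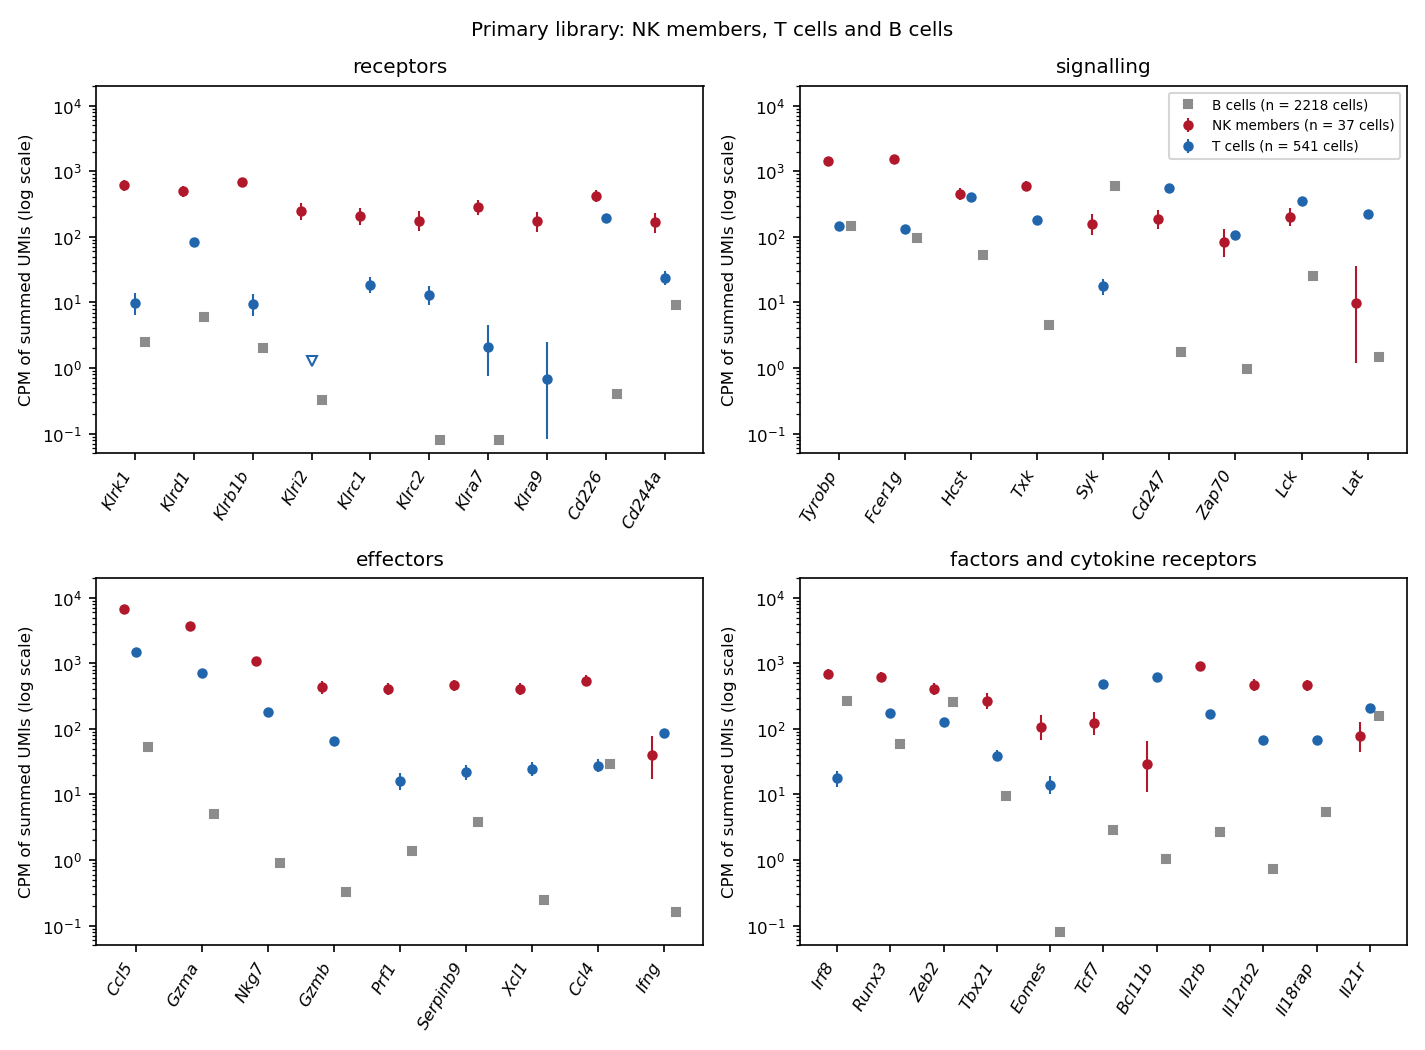
Summed CPM (log axis) in the 37 primary NK members (red), 541 T cells (blue) and 2218 B cells (grey squares) for genes grouped by role; bars are exact 95% Poisson intervals, which cover counting error only, and an open triangle is the upper limit of a count of 0. Lectin-like receptors, Tyrobp, Fcer1g and the granule genes lie higher in NK members, whereas Lat, Cd247, Tcf7 and Bcl11b lie higher in T cells.

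Signalling genes differed in both directions. Of 18 adaptors and kinases compared, 7 were higher and 4 lower, beside 9.69% and 5.69% over all genes, with a median log2 ratio of 0.27. Tyrobp (DAP12) was at 1428 CPM (1268 to 1602) against 148 (134 to 163), and Fcer1g, the Fc receptor gamma chain, at 1541 (1375 to 1722) against 133 (120 to 147), the latter in 35 of 37 members. B cells had 148 CPM of Tyrobp and 97.6 CPM of Fcer1g, so the T-cell values lie near the level seen in cells that should lack them. Hcst (DAP10), which couples NKG2D, was at 448 against 404 CPM. Among kinases and phospholipases, Syk was at 158 against 17.6 CPM and Plcg2 at 231 against 24.1 CPM. Txk, a Tec family kinase, was at 596 against 184 CPM. The 4 lower genes were Lat, Plcg1, Cd247 and Sh2d1a. Lat, the T-cell receptor scaffold, gave 2 UMIs in the members (9.85 CPM, 1.19 to 35.6) and 643 in T cells (221 CPM). Cd247, the CD3 zeta chain that also serves NKp46, was at 187 against 551 CPM.

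Of 24 transcription factors compared, 7 were higher and 6 lower, beside 9.69% and 5.69% over all genes, with a median log2 ratio of -0.12. Irf8, an interferon regulatory factor, showed the largest ratio among them, 694 CPM (584 to 819) against 17.6 (13.1 to 23.1), with 269 CPM in B cells. Tbx21 was at 271 CPM (204 to 353) in 22 members against 39.3 (32.4 to 47.2), and Eomes at 108 CPM (67.9 to 164) in 12 members against 14.1 (10.1 to 19.2). Runx3, a Runt family factor of cytotoxic lineages, was at 620 against 176 CPM, Zeb2 at 409 against 126 CPM, and Id2, the inhibitor of E proteins on which ILC lineages depend, at 532 against 191 CPM. On the lower side, Bcl11b, which maintains T-cell identity, was at 29.5 against 613 CPM, Tox at 315 against 1089 CPM and Tcf7 at 123 against 486 CPM. Tox2 had no UMI in the members and 138 CPM in T cells.

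The killing machinery was higher as a list: 8 of 14 genes compared were higher, none was past 2-fold lower and the median log2 ratio was 1.59. Gzma, granzyme A, was at 3673 CPM (3414 to 3947) in 17 members against 715 (685 to 747) in 53 T cells. Gzmb, granzyme B, was at 428 against 66.1 CPM, and Prf1 at 409 against 15.8 CPM. Nkg7 was at 1069 against 183 CPM. Serpinb9 and Serpinb6b, inhibitors that shield cytotoxic cells from their own proteases, were at 463 against 21.7 CPM and 310 against 29.6 CPM. Gzmk had no UMI in the members and was at 20.7 CPM in T cells. Against the 125 T cells with a Cd8a or Cd8b1 UMI, which held 2174 CPM of Gzma and 219 CPM of Gzmb, the list's median log2 ratio was 0.71. For activating receptors it was 0.91 in that setting.

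Of 10 secreted mediators compared, 5 were higher and 1 lower, beside 9.69% and 5.69% over all genes. Ccl5, a chemokine for T cells and monocytes, was the most abundant of them at 6830 CPM (6475 to 7199) against 1472 (1428 to 1517). In the 34 barcodes with both receptor and Cd3 UMIs, left out of the T cells, it was at 6129 CPM. Xcl1, the ligand of cross-presenting dendritic cells, was at 409 against 24.5 CPM. The chemokine genes Ccl3 and Ccl4 were at 320 against 18.3 CPM and at 542 against 27.6 CPM. The lower gene was Ifng, at 39.4 CPM (17.0 to 77.6) from 8 UMIs against 86.8 (76.4 to 98.2). Cxcl2, a neutrophil attractant, reached 1630 CPM, but 313 of its 331 UMIs came from 1 member that also held 24 of the 26 Cd14 UMIs and all 38 Acod1 UMIs; Cd14 and Acod1 are macrophage genes. That same member held 28 of the 65 Ccl3 and 25 of the 83 Xcl1 UMIs. In another member were 49 of the 59 UMIs of the neutrophil gene S100a8. Summed over their lists, 8 macrophage markers were at 1073 CPM in the members and 1090 in T cells, with Adgre1 and Ms4a7 at 0 in the members. The 7 neutrophil markers were at 625 against 406 CPM, with none at 0. Dendritic cell markers were past 2-fold higher in 3 of 4 compared (Cd209a, H2-Aa and H2-Ab1), with a summed level of 1280 against 233 CPM over 8 genes and Xcr1, Clec9a and Siglech at 0 in both classes. One member held 105 of the 122 H2-Aa UMIs and all 10 of Cd209a. Without it the list's median log2 ratio went from 2.54 to -0.023. The part of these cell types in the other differences was not tested.

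Of 15 cytokine receptors compared, 5 were higher, 2 lower (Il21r and Il6ra) and 8 within 2-fold, and the median log2 ratio was 0.01. Over all genes 9.69% were higher and 5.69% lower. Among the higher cytokine receptors were Il2rb, the shared chain of the IL-2 and IL-15 receptors, at 916 CPM (789 to 1057) against 169 (154 to 185), Il12rb2 at 468 against 68.5 CPM and Il18rap at 463 against 67.9 CPM. Il7r did not separate the classes, at 502 against 526 CPM. Of 16 trafficking genes compared, 5 were higher, among them Itga2 (the integrin recognised by DX5), Itgam (CD11b), Itgax and Ccr2. Itga2 was at 256 against 12.7 CPM. The 3 lower were Ccr7 and S1pr1, which guide lymphocytes through lymph nodes, and Itgae. Ccr7 had no UMI in the members and 74.1 CPM in T cells.

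Over all genes 9.69% were higher and 5.69% lower, the shares to set beside the list counts that follow. Late-stage NK genes were higher in 8 of 10 compared (median log2 ratio 2.08), among them Cma1 with 17 UMIs in 8 members and none in T cells. Early-stage genes were higher in 4 of 12 and lower in 1, with a median of 0.03. The higher ones were Kit, Ctla2a, Xcl1 and Cd7, and the lower one was Tcf7. Tissue-resident or ILC1 genes were higher in 2 of 14 (Tmem176a and Ckb) and lower in 4, and ILC2 and ILC3 genes were higher in 1 of 6 (Il23r) and lower in 2 (Il1rl1 and Areg). Of 15 checkpoint genes compared, 3 were higher (Klrc1, Entpd1 and Adora2a) and 4 lower. Pdcd1, which encodes PD-1, had no UMI in the members and 43.4 CPM in T cells, and Ctla4 was at 29.5 against 336 CPM. T-cell genes outside the definition were lower in 14 of 16, with a median log2 ratio of -4.50, or -3.23 with the 7 genes that had no UMI in the members put at their bound. Themis, a thymocyte signalling gene, had no UMI and was at least 48.8-fold lower over a floor of 3 counts. Trbc1, whose unrearranged transcripts occur outside T cells, was at 330 against 578 CPM, within 2-fold. Type I interferon genes were higher in 1 of 11 (Rsad2, with all 12 UMIs from 1 member) and lower in 4, among them Isg15. Immediate early and heat shock genes were higher in 1 of 22 and lower in none, and cell cycle genes were lower in 2 of 5, Mki67 and Top2a.

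**Figure D3:**
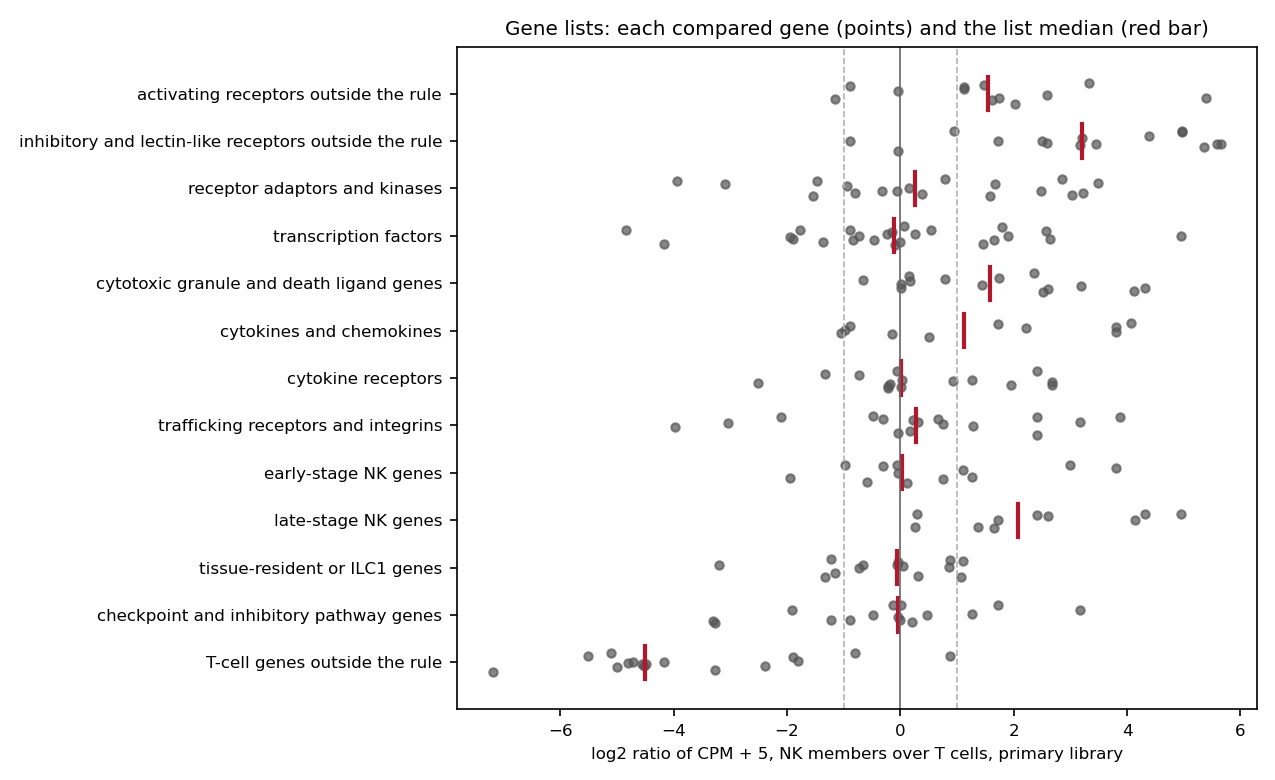
Log2 ratio of CPM + 5 between primary NK members and T cells for each compared gene of 13 lists (points; vertical jitter carries no value), with the list median as a red bar and dashed lines at 2-fold. The medians of the 2 receptor lists, of cytotoxic genes, of secreted mediators and of late-stage genes lie beyond 2-fold higher, and that of T-cell genes lies beyond 2-fold lower.

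By rank alone, without the lists, the 15 genes with the highest ratio at a mean of at least 100 CPM included Klri2, Klrb1b, Klrk1, Klra7, Irf8, Prf1, Serpinb9, Ccl4 and Itga2, described above. First was a gene with no symbol in the files, ENSMUSG00000121360, at 655 CPM in 14 members against 2.41 CPM. Clnk, an adaptor of immune receptor signalling, was at 670 against 34.1 CPM and seen in 28 members. Ffar2, a receptor for short-chain fatty acids, was at 251 against 3.44 CPM. Its 51 UMIs lay in 10 members, none of which held a UMI of Eomes, Klra8 or Klra4. The kinase gene Cdk14 was at 340 against 5.17 CPM. Nalf1 had 57 UMIs from only 4 members, 54.4% of them from 1, and all 4 members held Il7r, a set described below. The 10 lowest were Themis, Cd5, Fam169b, Trac, Cd6, Slamf6, Bcl11b, Tnfsf8, Rgs10 and Lat. Of these named genes, 10 of the higher and 8 of the lower had a RefSeq promoter window. The Runx core was in 4 and 2 of them, and the T-box core in 2 and 1.

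The primary members were not alike. Split by the Ly49 genes Klra8 and Klra4, which belong to the definition, 16 members had a UMI of either gene and 21 had none. Gzma was seen in 13 of the 16 and in 4 of the 21, and Il7r in 2 and in 14. Split by Eomes, the 12 members with a UMI had a median depth of 7923.5 UMIs and the 25 without one 4590, so the split also parted the members by depth. Gzma was seen in 10 of the 12 and in 7 of the 25, Abcb1b in 6 and in none, and Tmem176b in none and in 14. Split by Itga1, an integrin of tissue-resident cells, Gzma was seen in 2 of 11 members with a UMI and in 15 of 26 without, Eomes in 2 and in 10, and Il7r in 6 and in 10.

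A division by genes outside the definition followed Il7r, the interleukin-7 receptor chain kept by helper-like ILCs and early lymphoid cells, which was seen in 16 of 37 members and absent from 21. This split was chosen after the members' values were seen, and it is described without a test. The median depth was 5084.5 UMIs in members with Il7r and 5561 in those without.

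The 21 members without Il7r carried the cytotoxic genes. Of the 746 Gzma UMIs, 745 lay in 16 of these cells and 1 in a cell with Il7r, or 6282 CPM (5839 to 6750) against 11.8 CPM (0.300 to 65.9). All 87 Gzmb UMIs and 82 of 83 Prf1 UMIs were in cells without Il7r. Zeb2 was at 691 against 11.8 CPM, Itga2 at 422 against 23.7 CPM and Ccl5 at 11080 against 864 CPM. Klra8 and Klra7 were seen only in cells without Il7r, with 63 and 58 UMIs. Across 12 late-stage genes the cells without Il7r had 508 UMIs (4284 CPM) and those with it 25 (296 CPM). In all, 18 of 21 cells without Il7r and 2 of 16 with it held a UMI of Gzma, Prf1 or Klra8. Klra8 belongs to the definition, as does Klra4, which was seen in 8 of the 21 and 2 of the 16. Outside the definition, Gzma was seen in 16 of the 21 and 1 of the 16, and Prf1 in 14 and 1.

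The 16 members with Il7r carried genes of other lymphoid programmes. Il23r, the IL-23 receptor, gave 41 UMIs in 10 of them (485 CPM, 348 to 658) and none in the other 21 (upper limit 31.1 CPM). Il1r1 (32 UMIs, 6 cells) and Cxcr6 (21 UMIs, 8 cells) were likewise absent from cells without Il7r. Il22 was seen in 2 cells with 3 UMIs, and Il17a in none. Emb was at 1740 against 194 CPM, Rora at 698 against 75.9 CPM, Tmem176b at 580 against 59.0 CPM, Ltb at 497 against 59.0 CPM and Tcf7 at 260 against 25.3 CPM. Summed over 12 ILC2 and ILC3 genes the cells with Il7r had 105 UMIs (1243 CPM, 11 of 16 cells) and those without 7 UMIs (59.0 CPM, 6 of 21 cells). Over 15 tissue-resident or ILC1 genes, Il7r left out, the values were 4320 and 1307 CPM. The type 2 genes Il1rl1, Il13, Il5 and Il17rb had no UMI in any primary member.

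Ncr1 was at 509 and 481 CPM in cells with and without Il7r and Klrb1c at 675 and 624, but both genes were used to choose the members, so their presence in both sets follows from the definition. Outside it, Klrk1 was at 710 and 540 CPM and Il2rb at 982 and 869 CPM. Tbx21 was seen in 9 of 16 and 13 of 21 cells, at 213 CPM (126 to 337) and 312 CPM (220 to 430). Eomes was seen in 2 of 16 and 10 of 21, at 47.3 CPM (12.9 to 121) and 152 CPM (90.0 to 240), intervals that overlap. The 2 cells with Il7r and Eomes held 1 Il7r UMI each, and 1 of them also held 6 Klra4 and 32 Ccl5 UMIs. The cells with Il7r were thus not all alike. Beside Ncr1 and Klrb1c, they held 1 UMI of Gzma, 1 of Prf1 and none of Gzmb. These counts go against the label of a cytotoxic NK cell for this set as a whole. T-cell genes outside the definition did not separate the sets, at 923 and 869 CPM over 18 genes. Leaving the cells with Il7r out, genes lower than in T cells numbered 600 in place of 379, and the tissue-resident or ILC1 list moved from a median log2 ratio of -0.06 to -1.40.

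**Figure D4:**
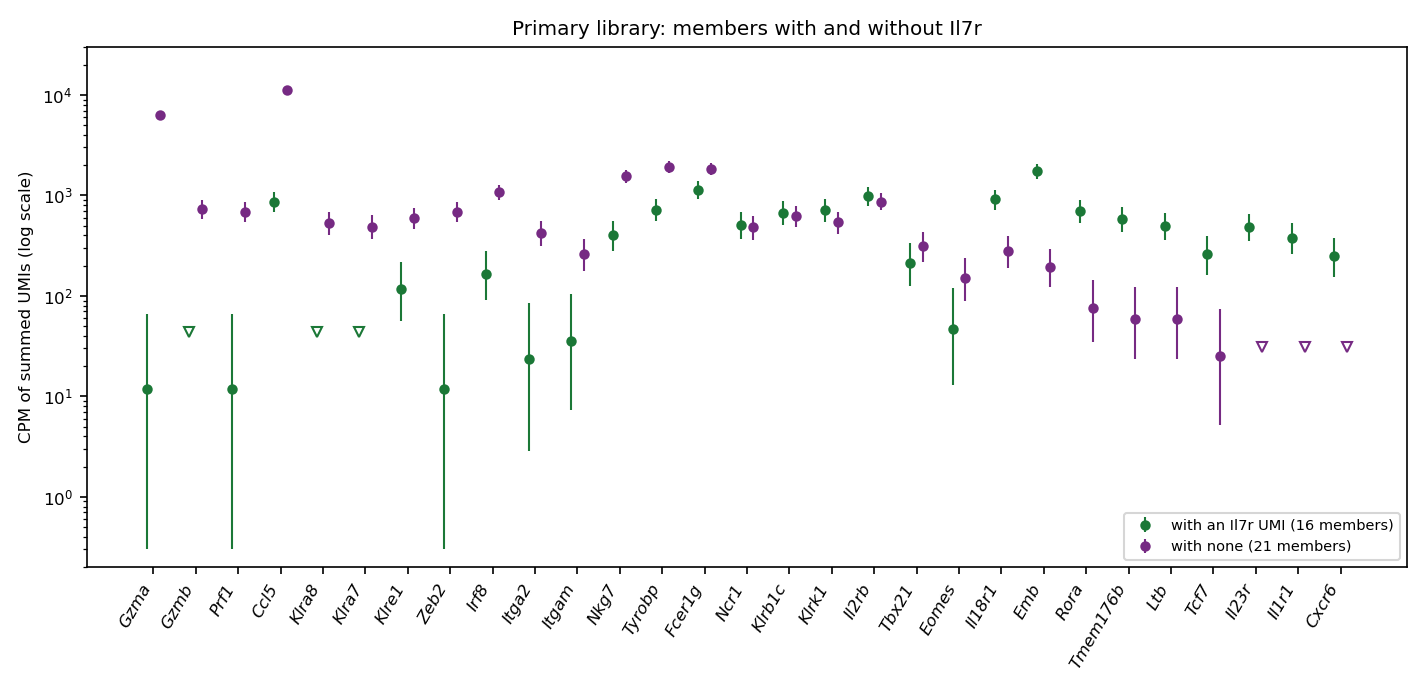
Summed CPM (log axis) in the 16 primary members with an Il7r UMI (green) and the 21 with none (purple); bars are exact 95% Poisson intervals, which cover counting error only, and open triangles are upper limits of a count of 0. Granule, Ly49 and integrin genes on the left are higher without Il7r, Ncr1 to Il2rb in the middle are close, and Il23r, Il1r1 and Cxcr6 on the right have no UMI in the cells without it.

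Between libraries, the summed members were compared over genes with a mean of at least 100 CPM. With all members, 13.7% of 1886 genes were past 2-fold higher in the chemoresistant library (259) and 30.5% lower (575), and the median log2 ratio was -0.38. Centred on the median gene the split was 412 and 396. The highest genes were those of the 4 barcodes over 15000 UMIs: Hbb-bs at 7708 against 39.4 CPM, Ncam1 and Cryab with 95 and 89 UMIs in those 4 and none in primary members, and Nupr1 and Ndrg1. Without these 4, Hbb-bs was at 72.2 CPM and Ncam1, Cryab and Nupr1 had no UMI. The counts became 7.76% higher and 18.4% lower of 1882 genes.

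Without all 8 set-aside members, 7.32% of 1926 genes were higher (141) and 16.7% lower (322), with a median log2 ratio of -0.13. All values that follow are for these 36 and 14 members, whose sums were 193068 and 40650 UMIs. The chemoresistant sum is thus small, and 3 counts in it make 73.8 CPM. The choice moved the levels of NK genes. Klrk1 was at 270 CPM with all 21 members, at 722 without those 4 and at 910 without all set aside. With all members, activating receptors were past 2-fold lower in 5 of 5 compared, beside 30.5% over all genes.

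Klrk1, Klrd1, Tyrobp and Nkg7 were at like levels in both sums, with overlapping intervals. Klrk1 was at 642 CPM (534 to 766) in primary and 910 (641 to 1255) in chemoresistant members, Klrd1 at 492 (398 to 602) and 689 (458 to 995.5), Tyrobp at 1409 (1246 to 1587) and 1501 (1148 to 1928), and Nkg7 at 1124 (979 to 1284) and 1156 (849.5 to 1538). Klrc1 was at 218 CPM (157 to 294) and 24.6 (0.623 to 137), with 1 chemoresistant UMI. Klrb1b was at 710 CPM (596 to 839) and 197 CPM, from 8 chemoresistant UMIs. The median log2 ratio of 10 compared inhibitory and lectin-like receptors was -0.63, with 1 higher and 4 lower, and that of 7 activating receptors was also -0.63, with none higher and 2 lower. Of 11 adaptors and kinases compared, 1 was higher and 2 lower. Over all genes, 7.32% were higher and 16.7% lower. Members with Il7r made up 16 of the 36 primary and 1 of the 14 chemoresistant ones. In the 21 primary members without Il7r, 1 with high H2-Aa included, Klrk1 was at 540 CPM, Tyrobp at 1931 and Nkg7 at 1543. The part of this mix in the differences was not tested.

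Of 11 cytotoxic genes compared, 3 were lower in the chemoresistant members (Gzma, Gzmb and Prf1), 1 was higher and 7 were within 2-fold, beside 16.7% lower over all genes. Of 6 secreted mediators, 2 were lower (Ccl3 and Ccl4) and 4 within 2-fold. Gzma was at 3864 CPM (3592 to 4151) and 1255 (934 to 1650), with 27 of the 51 chemoresistant UMIs from 1 cell. Ccl5 was at 7184 (6811 to 7572) and 4330 (3714 to 5019), within 2-fold. In the 21 primary members without Il7r, Gzma was at 6282 CPM and Ccl5 at 11080 CPM. The size of both differences thus depends on which primary members are counted. Prf1 was at 430 (342 to 533) and 172 (69.2 to 355), Gzmb at 451 (361 to 556) and 73.8 (15.2 to 216), and Ccl4 at 570 (468 to 687) and 49.2 (5.96 to 178). Ccl3 had 65 UMIs in primary members, 28 of them from 1 member, and none in chemoresistant ones. Gzmc, a granzyme of activated and tissue-resident killer cells, went the other way, with no UMI in primary members and 23 in chemoresistant ones, 21 of them in 1 cell. T cells of the same libraries differed in the opposite direction for Gzma, Ccl4 and Ccl5, at 715 and 2716 CPM, at 27.6 and 758 CPM and at 1472 and 16997 CPM. Nkg7, at like levels in the members of both libraries, was at 183 and 1210 CPM in T cells. With all members 8 of 10 cytotoxic genes were lower, beside 30.5% over all genes.

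Of 17 transcription factors compared, 7 were lower and 1 higher, against 12 and none of 14 with all members. Over all genes, 16.7% were lower and 7.32% higher, against 30.5% and 13.7% with all members. Runx3 was at 647 CPM (539 to 771) and 123 (39.9 to 287), and Tbx21 at 285 (215 to 371) and 98.4 (26.8 to 252). Tox, the higher one, was at 331 (255 to 423) and 886 (620 to 1226). Eomes, with 22 and 9 UMIs, was at 114 (71.4 to 173) and 221 (101 to 420), and its intervals overlap. Of 9 cytokine receptors compared, 5 were lower, beside the same 16.7%, and with all members 8 of 8 were, beside 30.5%. Ifngr1 was at 1051 against 320 CPM, Tgfbr2 at 223 against 24.6 CPM and Il18r1 at 565 against 123 CPM. Most primary Il18r1 UMIs lay in members with Il7r, with 77 UMIs (911 CPM) there and 33 (278 CPM) in those without. Only 1 of the 14 chemoresistant members carried Il7r.

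Il7r was seen in 16 of 36 primary members (44.4%, 27.9 to 61.9) and in 1 of 14 chemoresistant ones (7.14%, 0.181 to 33.9). With all members it was seen in 16 of 37 and in 2 of 21 (9.52%, 1.17 to 30.4). Thinned to 1000 UMIs a cell the counts were 10 of 35 and 0 of 13, with an upper Clopper-Pearson bound of 24.7% for 0 of 13. Il23r had no UMI in chemoresistant members. T cells showed the same direction for Il7r, at 526 and 171 CPM. B cells, as background, had a UMI in 1.17% and 0.889% of cells at median depths of 4416 and 1642 UMIs, with overlapping intervals, and in 0.181% and 0.498% when thinned. Klra8 or Klra4, which are part of the definition, were seen in 16 of 36 and 10 of 14 members. Gzma was seen in 17 of 36 (47.2%, 30.4 to 64.5) and in 9 of 14 (64.3%, 35.1 to 87.2), so its lower level in the chemoresistant sum came with a share of cells that was not distinguishable at this depth.

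**Figure D5:**
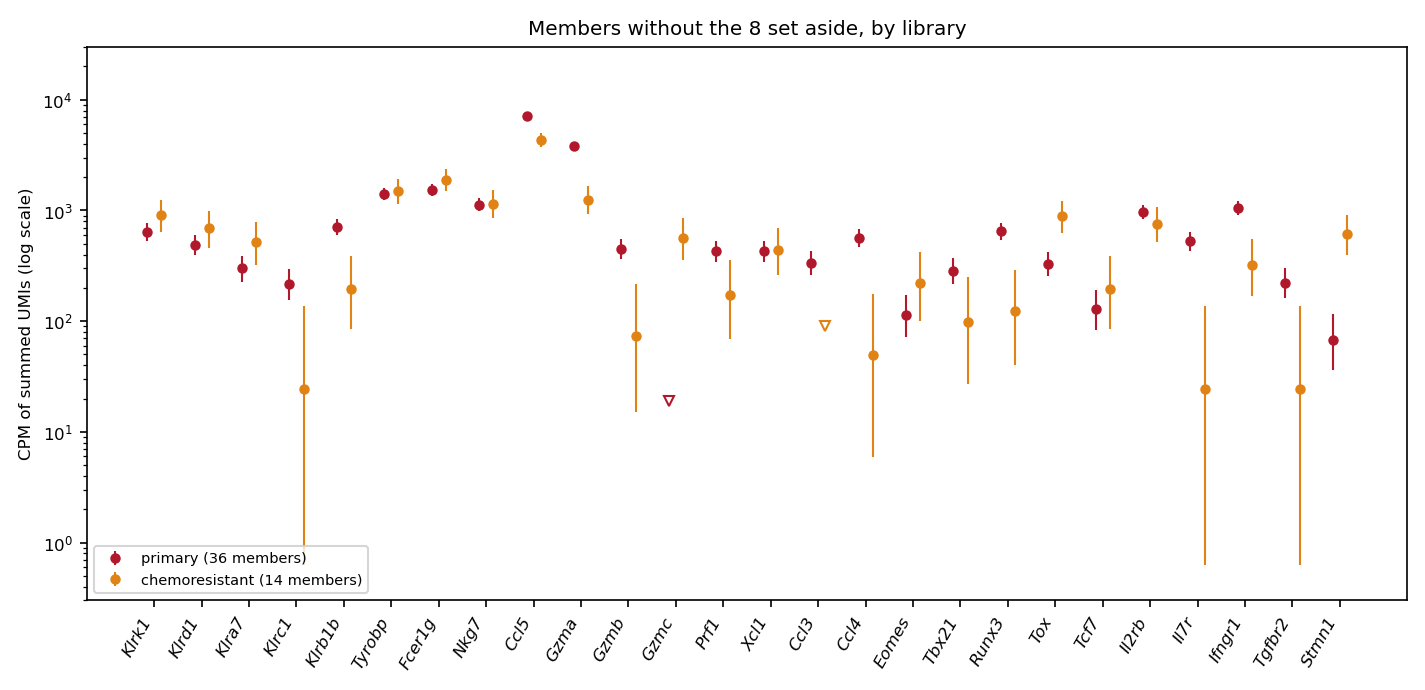
Summed CPM (log axis) in 36 primary (red) and 14 chemoresistant (orange) members, the 8 set-aside members left out; bars are exact 95% Poisson intervals, which cover counting error only, and open triangles are upper limits of a count of 0. Klrk1, Tyrobp and Nkg7 overlap between libraries, Gzma, Ccl4, Runx3 and Il7r lie lower in the chemoresistant members, and Gzmc and Stmn1 lie higher.

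The higher genes in the chemoresistant members were led by Stmn1, Tubb5 and Hmgb2, which are high in dividing cells, at 615 against 67.3, 713 against 82.9 and 1132 against 269 CPM. Rbm3, a cold-inducible RNA-binding gene, followed at 1255 against 425 CPM, seen in 13 of 14 members, and was also higher in T cells of the chemoresistant library, at 978 against 536 CPM. Few cells carried the most Stmn1: 18 of the 25 Stmn1 UMIs came from 1 member, and Mki67 was seen in 2. Over 18 cell cycle genes the summed level was 1722 CPM in chemoresistant and 280 in primary members, and in T cells it was 577 and 432 CPM. The lowest genes included Cxcl2, most of whose primary UMIs lay in 1 member, Ccl4, Runx3, Lrmda, Camk1d, Gphn and Lncpint. Camk1d, Gphn and Lncpint were at 1155 and 221, 1875 and 369, and 518 and 98.4 CPM. These 3 were lower in T cells of the chemoresistant library too, at 1185 and 405, 1744 and 493, and 649 and 493 CPM. Lrmda was at 684 and 123 CPM in the members and at 56.1 and 27.5 CPM in T cells. Immediate early and heat shock genes were lower in 6 of 17 compared and higher in none, beside 16.7% lower over all genes. Neutrophil markers summed to 658 CPM in primary and 24.6 CPM in chemoresistant members, with 6 of 7 at 0 in the latter. A single primary member held 49 of the 59 S100a8 and 33 of the 48 S100a9 UMIs. Median depth differed as well, at 5084.5 UMIs in primary and 2541 in chemoresistant members, and the part of depth and of these markers in the differences was not tested. Treatment, tumour stage and library cannot be told apart here, since each condition is 1 pooled library.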

How the data were processed

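Single-cell libraries of pooled treatment-naïve and cisplatin-treated ID8 tumours were analysed, 1 per group. The authors deposited raw UMI counts per gene and barcode, made with Cell Ranger 8.0.1 on mm10 per the submitters' processing notes. No columns of other samples were left unused. Barcodes with at least 250 genes and at most 20% mitochondrial UMIs were kept; the lowest barcode had 500 UMIs. Members and gene lists were chosen with earlier results of these data known.

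Counts were summed over cells and divided by the sum of all genes to give CPM (Python 3.11.15, numpy 2.4.6, pandas 2.3.3), with exact Poisson intervals. Ratios used a pseudocount of 5 CPM, a filter on mean CPM (20 against T cells, 100 between libraries) and a 2-fold limit, with the definition's genes left out; this understates changes of low genes. Named genes were members of the lists, the 15 highest and 10 lowest ratios at 100 CPM against T cells, and the 8 highest and 8 lowest at 300 CPM between libraries and at 100 CPM in the splits of members by Klra8 or Klra4, Eomes and Itga1. The split by Il7r and other single genes were chosen after their values were seen. Scrublet in scanpy 1.11.5 marked 1316 and 1778 kept barcodes as doublets, including 2 of 37 and 7 of 21 members; these stayed in except in one alternative. The code was tested on simulated data. Alternatives covered the definition, doublets, pseudocount, filter, centring, averaging, depth and comparator. Those without barcodes over 15000 UMIs, without high H2-Aa and without Il7r were chosen after seeing the data. Promoters came from RefSeq. Some genes are not reported here.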

Additional observations from a re-analysis of the deposited data

How the results depend on the processing

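The NK shares of kept barcodes and of NK plus T cells stayed within their counting intervals in 31 of 32 recomputations. The exception was the chemoresistant share of kept barcodes, 0.0750% when every barcode was thinned to 1000 UMIs before the definition was applied. The limits of 10% mitochondrial UMIs and of 500 genes removed no member. The shares were not recomputed without the members with Il7r, 16 of the 37 primary ones, so their stability does not cover that choice. Against T cells, genes higher and lower numbered 417 and 234 with 20 CPM added, 1257 and 1286 with no filter, and 1386 and 821 with cells thinned to 1000 UMIs; 600 were lower for members with no Il7r UMI. List medians kept their side of 2-fold in 284 recomputations, of which 17 changed sign within it, and crossed it in 13, of which 2 changed sign. In 3 a median past 2-fold changed sign: secreted mediators with no filter (-0.14) and dendritic cell markers with at least 3 receptor UMIs required (-0.025) and without the set-aside members (-0.023). Between libraries, genes higher and lower numbered 2719 and 3332 with no filter. The higher genes were 412 when centred on the median gene and 401 when thinned. Without members over 15000 UMIs they were 146 higher and 346 lower, and without those with high H2-Aa too 141 and 322. Of 182 list medians there, 35 crossed 2-fold and 5 changed sign within it, among them macrophage markers, from -0.53 with all members to 0.12 without those set aside. Lists with fewer than 3 genes compared were left out. The cause of these shifts was not tested. No paired analysis was possible because each group is 1 pooled library. The chemoresistant members' 40650 UMIs, without those set aside, limit what can be seen to about 73.8 CPM.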
